A study of Homo sapiens with 12 samples.

Results

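Integrins and laminins are the receptors and the ligands with which an epithelial cell holds on to its basement membrane. The genes described here are every protein-coding gene of the count table whose symbol starts with ITGA or ITGB, apart from ITGBL1 and the integrin-binding proteins, together with every gene named LAMA, LAMB or LAMC and a digit. The rule uses names and no measured value. It takes 38 of 58735 genes, namely 18 integrin alpha subunits, 8 integrin beta subunits and 12 laminin chains.

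An integrin is a membrane receptor made of an alpha and a beta subunit, and the alpha subunit largely sets which ligand it binds. A laminin is a cross-shaped protein of an alpha, a beta and a gamma chain that is laid down in the basement membrane. In the eye, lens epithelial cells sit on the lens capsule, a thick basement membrane rich in laminin and collagen IV, and attach to it through integrins.

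HLE-B3 is an established cell line derived from the epithelium of a human lens, and its RNA was sequenced in 4 groups of 3 replicates. WT cells and cells in which the autophagy gene ATG7 had been knocked out (KO) were either untreated and collected at 0 h or treated with 200 μM H2O2, an oxidant, for 12 h. All cells were grown in the same serum-containing medium. The KO cells came from picked clones and the labels do not say which, so a difference between clones and the loss of ATG7 cannot be told apart. No group kept for 12 h without H2O2 was analysed here, so H2O2 and 12 h of further culture cannot be told apart either.

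The libraries held 15602183 to 17659496 reads on genes, of which the members took 0.564 to 0.828%. ATG7 RNA was not lower in the KO libraries (3.78, 3.42 and 3.43 FPKM untreated, against 2.81, 2.64 and 2.21 in WT), so the transcript level does not check the genotype labels. Of 12 lens epithelium markers 6 reached 1 FPKM, among them VIM, CDH2 and GJA1, whereas FOXE3, CRYAA, PROX1, MAF and CDH1 had at most 0.0893 FPKM in any library. The 1 library that stood apart was untreated KO replicate 1. Its mean correlation with the other replicates of its group was 0.974, and it was lower in long genes (median log2 deviation -0.33) and higher in short genes (0.32). In it 19 of the 21 expressed members were below both other replicates. How many of all genes lay below both others in this library was not counted. For comparisons that use it, counts of members past the threshold are therefore given with and without it. Levels, ratios, figures and some single fold changes are given with it only.

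Levels are given as FPKM, read counts scaled by gene length and library size, as deposited, which allows genes to be compared per length. Of the 38 members, 21 had a mean of 1 FPKM or more in at least 1 group. These were 3 of 3 laminin-binding, 3 of 4 collagen-binding, 2 of 4 RGD-binding and 1 of 5 leukocyte alpha subunits, ITGA4, 3 of 8 beta subunits, and 8 of 12 laminin chains. A set of 8 members (ITGA8, ITGA9, ITGAD, ITGAL, ITGAX, ITGB6, LAMB4 and LAMC3) never passed the filter on low counts and had at most 14 reads and 0.174 FPKM in any library.

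The beta subunit pool was almost wholly ITGB1, the partner of most matrix-binding alpha subunits. In untreated WT libraries it averaged 387 ± 20.1 FPKM (mean ± SD, n = 3, as for all levels below), or 93.6 ± 0.226% of the summed FPKM of the 8 beta genes, and 89.7 ± 0.189% in KO cells with H2O2. ITGB5 (17.2 ± 0.609 FPKM in untreated WT cells) and ITGB3 (8.24 ± 0.379), which pair with ITGAV to bind vitronectin, were the other expressed beta genes. ITGB4, the hemidesmosome subunit that pairs with ITGA6, reached 1.06 FPKM at most in any of the 12 libraries, with a group mean of at most 0.950 FPKM.

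Among alpha subunits the laminin receptor ITGA3 was the most abundant, at 130.4 ± 2.91 FPKM in untreated WT cells, followed by ITGAV (55.7 ± 1.97) and the fibronectin receptor subunit ITGA5 (51.0 ± 0.492). The laminin receptor subunit ITGA6 came next, at 19.0 ± 0.446 FPKM. ITGA4, which binds fibronectin and VCAM1, stood at 6.70 ± 0.255 FPKM, ITGAE at 3.71 ± 0.475 and the collagen receptor subunit ITGA2 at 3.73 ± 0.0878. ITGAE, ITGA2, ITGA1 (2.41 ± 0.319) and ITGA7 (2.28 ± 0.254) lay close together, and the libraries of ITGAE and ITGA2 and those of ITGA1 and ITGA7 overlapped.

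LAMC1, the gamma chain of most laminins, was at 65.2 ± 1.64 FPKM in untreated WT cells. LAMA3 and LAMB3 are chains of a laminin typical of epithelia. The beta chains LAMB1 (28.1 ± 0.742) and LAMB2 (26.8 ± 1.68) overlapped in level and both exceeded LAMB3 (15.4 ± 1.14). The alpha chains were lower, with LAMA1 at 7.76 ± 0.232, LAMA3 at 5.04 ± 0.452 and LAMA5 at 4.37 ± 0.249 FPKM. LAMA2 had at most 0.569 and LAMA4 at most 0.169 FPKM in any library.

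The first comparison asked how KO cells differed from WT cells after H2O2. Most of the expressed receptors and laminin chains were higher in KO cells. All 3 expressed collagen-binding alpha subunits, the epithelial chain LAMB3, the alpha chains LAMA1 and LAMA5, and ITGB3 were higher by more than 1 on the log2 scale. Of the 38 members 30 were tested, 17 were higher and 8 lower at an adjusted p under 0.01 (edgeR quasi-likelihood test, Benjamini-Hochberg), while 55.6% of all 15909 tested genes passed in either direction, 27.7% higher and 27.9% lower. The 21 expressed members held all 17 higher calls and 1 lower call, ITGAE, and the other 7 lower calls were members under 1 FPKM in both groups, of which ITGA10, ITGA2B, ITGB2 and ITGB7 reached the filter on low counts in the treated WT libraries alone. The median log2 fold change of the 30 tested members was 0.41, and that of all tested genes -0.002. When a change beyond 1 on the log2 scale and a mean above 1 FPKM in either group were also required, the sense in which "differentially expressed" is used below, 8 members passed, all higher, against 7.46% of all genes, 3.03% higher and 4.43% lower. In bulk RNA a change in the share of a kind of cell and a change in RNA per cell cannot be told apart.

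LAMB3 (chr1:209614870-209652466, - strand, GRCh38) was at 76.8, 75.8 and 77.6 FPKM in the treated KO libraries and at 29.0, 31.2 and 29.3 in the treated WT libraries, replicates 1, 2 and 3 in that order here and below. The lowest KO library was more than 2 times the highest WT library, and the log2 fold change with its SE was 1.36 ± 0.04, adjusted p = 6.86e-24. LAMA3, the alpha chain of the same trimer, was at 2.29, 2.45 and 2.41 FPKM in KO and 2.0, 1.81 and 2.28 in WT libraries. The highest WT library of LAMA3 lay just below the lowest KO library, and the difference did not pass the threshold (0.22 ± 0.08, adjusted p = 0.0117).

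Promoter sequences from RefSeq are shown for LAMB3 and LAMA3, since these chains of 1 trimer went in opposite directions in WT cells given H2O2, and for ITGA2, the member with the largest response to H2O2 among those at 1 FPKM or more. Each is 300 bases of GRCh38.p14, 5′ to 3′ in the direction of the gene, from 250 bases before to 50 after an annotated start. Capitals mark matches on either strand to TGANTCA, the core of the AP-1 element, to TGACNNNGC, the core of the antioxidant response element, and to TATAAA, the core promoter element. LAMB3 has 3 annotated starts, of which the most upstream and the most downstream are shown, and the LAMA3 window is that of an internal start of the gene.
LAMB3, chr1:209652376-209652675, - strand: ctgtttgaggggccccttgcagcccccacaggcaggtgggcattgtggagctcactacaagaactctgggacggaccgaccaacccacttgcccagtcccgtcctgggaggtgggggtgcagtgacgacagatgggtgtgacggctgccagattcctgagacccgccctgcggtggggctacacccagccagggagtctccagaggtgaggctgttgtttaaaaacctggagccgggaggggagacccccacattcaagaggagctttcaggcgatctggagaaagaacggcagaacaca
LAMB3, chr1:209651325-209651624, - strand: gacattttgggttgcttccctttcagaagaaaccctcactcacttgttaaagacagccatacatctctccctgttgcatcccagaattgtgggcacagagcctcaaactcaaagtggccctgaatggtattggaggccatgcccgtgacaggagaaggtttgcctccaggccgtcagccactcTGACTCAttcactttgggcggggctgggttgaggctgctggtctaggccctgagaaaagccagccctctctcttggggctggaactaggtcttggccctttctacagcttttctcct
LAMA3, chr18:23872770-23873069, + strand: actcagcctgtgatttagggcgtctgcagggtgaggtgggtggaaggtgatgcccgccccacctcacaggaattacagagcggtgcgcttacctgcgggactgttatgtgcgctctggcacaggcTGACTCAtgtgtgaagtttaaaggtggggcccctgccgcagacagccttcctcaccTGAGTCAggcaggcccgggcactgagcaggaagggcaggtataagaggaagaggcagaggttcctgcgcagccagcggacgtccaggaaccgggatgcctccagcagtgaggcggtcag
ITGA2, chr5:52989102-52989401, + strand: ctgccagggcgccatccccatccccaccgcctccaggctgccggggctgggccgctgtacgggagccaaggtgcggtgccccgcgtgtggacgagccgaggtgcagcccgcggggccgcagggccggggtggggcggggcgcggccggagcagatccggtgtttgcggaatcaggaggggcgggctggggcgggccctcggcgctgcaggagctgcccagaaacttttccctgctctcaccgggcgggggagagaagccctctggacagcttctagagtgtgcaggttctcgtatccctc

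The AP-1 core was found at 2 positions of the LAMA3 window, -125 and -69 from the start, and at -67 from the downstream LAMB3 start. No match lay in the upstream LAMB3 window or the ITGA2 window. Of 26 members with a window in the RefSeq table, 3 held it in any of their windows (LAMA3, LAMB3 and ITGA5). It occurs in 7.71% of all 35116 windows of this length, each counted singly. Some members have several windows, so the count of members and the share of windows are on unlike bases. Counted the same way, the antioxidant response core was held by 4 of the 26 members and 13.3% of all windows, and TATAAA by 2 members and 11.5%. A match of letters is a description and not a bound site.

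ITGA2 (chr5:52989326-53094779, + strand) was the highest of the collagen-binding subunits, at 52.7, 53.2 and 55.2 FPKM in treated KO and 23.2, 23.0 and 25.7 in treated WT libraries (1.16 ± 0.04, adjusted p = 1.73e-21). ITGA1 (chr5:52787896-52959210, + strand) was at 3.36, 3.42 and 3.53 and 1.19, 1.21 and 1.37 FPKM (1.44 ± 0.07, adjusted p = 1.47e-18). The collagen receptor subunit ITGA11 (chr15:68296533-68432162, - strand) was at 1.54, 1.42 and 1.58 and 0.369, 0.448 and 0.252 FPKM, the largest difference of the expressed members in this comparison at 4.25-fold (2.09 ± 0.14, adjusted p = 4.73e-14). None of these 3 groups of libraries overlapped. ITGA1 overlaps PELO on the same strand, which had 74.0% as many reads as ITGA1 over the 12 libraries, and reads in shared bases cannot be told apart.

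ITGB3 (chr17:47253846-47311816, + strand) was at 14.9, 15.6 and 15.6 FPKM in treated KO and 5.92, 6.71 and 6.68 in treated WT libraries (1.25 ± 0.06, adjusted p = 1.14e-17). Its partner ITGAV was higher by less, at 48.2 ± 1.18 against 34.8 ± 0.997 FPKM (0.46 ± 0.04, adjusted p = 7.09e-13), and so was ITGB5 (0.38 ± 0.04, adjusted p = 3.12e-09). ITGB1 differed by 1.09-fold (0.12 ± 0.03, adjusted p = 0.000567), a call that was lost under upper quartile scaling, with all 12 libraries in the fit and with a gene length offset, which removes a trend of each library's values on gene length.

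LAMA1 (chr18:6941744-7117814, - strand), the alpha chain of the first laminin described, was at 11.1, 11.6 and 11.8 FPKM in treated KO and 4.74, 4.22 and 4.53 in treated WT libraries (1.34 ± 0.05, adjusted p = 1.57e-21). LAMA5 (chr20:62307955-62367312, - strand), the alpha chain of many adult basement membranes, was at 4.65, 4.58 and 4.49 and 1.94, 2.08 and 1.94 FPKM (1.20 ± 0.06, adjusted p = 1.39e-17). Neither gene's groups overlapped. LAMA5 shares bases with ADRM1 on the opposite strand, which had 187% as many reads, and whether counting used strand is not given in the sources used here. LAMC1 was higher by 1.57-fold and LAMB1 by 1.46-fold, both past the threshold (for LAMC1 not with all 12 libraries in the fit), whereas LAMB2 was at 13.1 ± 0.245 FPKM in KO and 12.4 ± 0.175 in WT cells (adjusted p = 0.182).

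Of the laminin receptors, ITGA6 was higher in treated KO cells (42.6 ± 1.39 against 31.3 ± 0.449 FPKM, 0.44 ± 0.04, adjusted p = 7.02e-12). ITGA3 was higher by 1.07-fold, the smallest of the calls, and its log2 fold change turned from 0.10 to -0.060 with the gene length offset. It kept its direction and its call in 10 of 16 settings, with adjusted p of at most 0.491. ITGA7 did not pass (0.29 ± 0.11, adjusted p = 0.0213). ITGA5 (0.44 ± 0.04, adjusted p = 2.74e-12) and ITGA4 (0.80 ± 0.07, adjusted p = 2.59e-12) were higher, and ITGAE was lower (-0.34 ± 0.08, adjusted p = 0.000566). The call of ITGAE was lost with all 12 libraries in the fit and without treated KO replicate 3, with adjusted p of at most 0.232. HASPIN, on the opposite strand of ITGAE, had 64.6% as many reads.

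**Figure D1:**
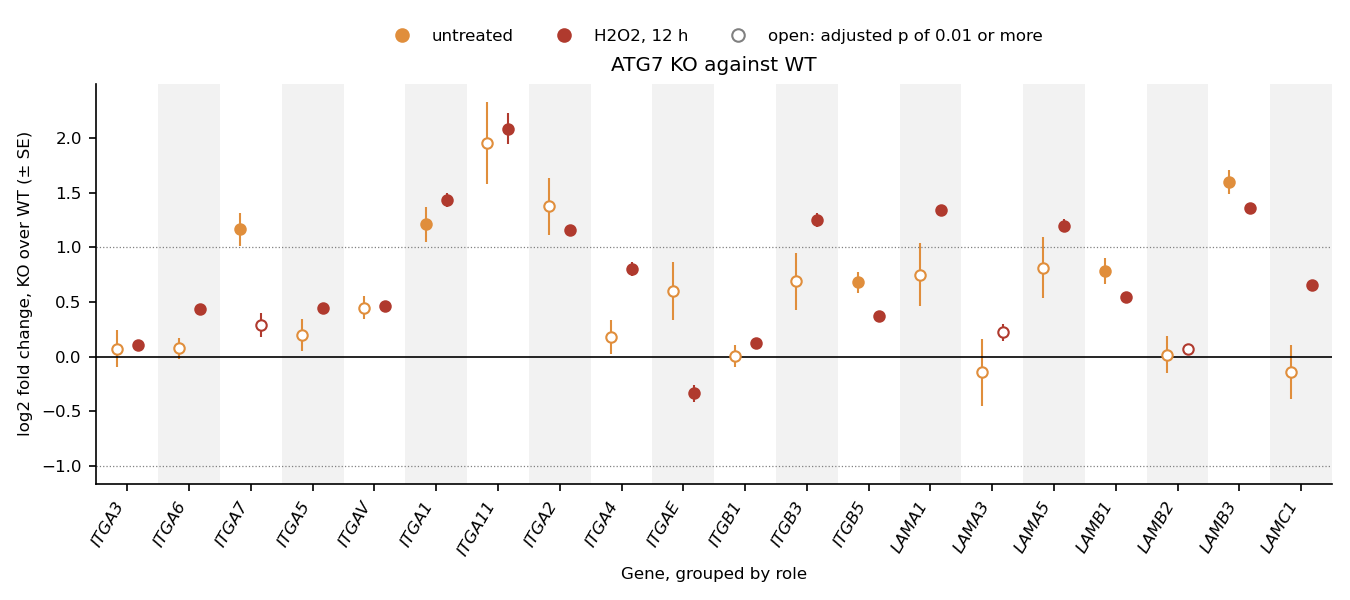
Log2 fold change of KO over WT cells (± SE of the fit, 3 libraries against 3) for 20 expressed members, untreated (orange) and after 12 h of H2O2 (red). Filled points passed an adjusted p of 0.01 and dotted lines mark a log2 fold change of 1. After H2O2 16 points are filled above 0 and 1, ITGAE, below it, whereas 5 untreated points are filled, with wider error bars.

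The same comparison in untreated cells asked which of these differences were present before H2O2. LAMB3, ITGA1 and ITGA7 were among the differentially expressed members, all higher in KO cells, and LAMB1 and ITGB5 were higher by less than 1 on the log2 scale. Of 28 members tested 6 were higher and 0 lower by edgeR, while 7.70% of all 15357 tested genes passed, 4.42% higher and 3.28% lower. At an unadjusted p under 0.05, 14 were higher and 1 lower, against 17.3% and 15.6% of all genes. DESeq2 called 11 higher and 0 lower, against 8.78% and 7.57% of all genes. Of all tested genes 3.50% were differentially expressed, 2.27% higher and 1.23% lower. The median log2 fold change was 0.52 over the tested members and 0.01 over all genes.

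LAMB3 stood at 43.5, 49.3 and 47.6 FPKM in untreated KO and 15.4, 16.6 and 14.3 in untreated WT libraries, 3.03-fold higher (1.60 ± 0.11, adjusted p = 0.000224). The gene was separated from WT in all 3 libraries, the library that stood apart included. LAMA3, its partner chain, was at 2.40, 5.80 and 5.46 FPKM in KO and 4.86, 5.56 and 4.71 in WT libraries, which overlapped (adjusted p = 0.772).

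ITGA1 was at 4.49, 6.23 and 6.01 FPKM in untreated KO and 2.76, 2.34 and 2.14 in untreated WT libraries (1.21 ± 0.16, adjusted p = 0.00332). ITGA7 (chr12:55684568-55716043, - strand), a laminin receptor subunit best known from muscle, was at 4.36, 5.71 and 5.31 and 2.01, 2.51 and 2.33 FPKM (1.16 ± 0.15, adjusted p = 0.00256). The groups of both genes did not overlap. ITGB5 was 1.60-fold higher (0.68 ± 0.09, adjusted p = 0.00331) and LAMB1 1.73-fold (0.79 ± 0.12, adjusted p = 0.00481). LAMB1 shares bases with DLD on the opposite strand, which had 63.5% as many reads, and ITGA7 with BLOC1S1, which had 24.3%.

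Several members were higher in replicates 2 and 3 of untreated KO cells only. LAMA1 was at 7.26, 16.4 and 15.5 FPKM in untreated KO against 7.50, 7.86 and 7.93 in WT libraries, and LAMA5 at 4.35, 9.82 and 8.88 against 4.2, 4.66 and 4.26. ITGB3 was at 7.93, 16.9 and 14.9 against 8.67, 8.09 and 7.96 FPKM, and LAMC1 at 36.4, 71.4 and 69.7 against 65.9, 63.3 and 66.4. In each of these 4 genes replicate 1 lay within or below the WT libraries and the other 2 libraries above them. ITGA2 (5.81, 11.8 and 11.4 against 3.83, 3.68 and 3.67 FPKM, adjusted p = 0.0120) and ITGA11 (1.20, 3.22 and 3.23 against 0.666, 0.751 and 0.560, adjusted p = 0.0130) did not overlap with WT but missed the threshold.

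Without untreated KO replicate 1, 20 members passed, 19 higher and 1 lower (ITGB2), while the share of all 15848 tested genes that passed also went up, to 36.2%, with 18.2% higher and 17.9% lower. Of the members 8 were differentially expressed, against 4.35% of all genes. LAMA1 was then higher by 1.04 on the log2 scale (adjusted p = 1.47e-63), LAMA5 by 1.10, ITGB3 by 0.96, ITGA2 by 1.65 and ITGA11 by 2.30. Only 2 members passed without untreated WT replicate 1, 2 or 3 or without KO replicate 3, and 3 without KO replicate 2, when 1.82 to 3.39% of all genes passed. LAMB3 kept its call in each of these fits.

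The response of WT cells to H2O2 went in both directions. The collagen receptor ITGA2, the laminin receptors ITGA3 and ITGA6 and the epithelial chain LAMB3 were among the members that rose. The chains LAMA1, LAMA3, LAMA5, LAMB1, LAMB2 and LAMC1, the RGD-binding subunits ITGA5 and ITGAV, and ITGA1, ITGA4, ITGB1 and ITGB3 fell. Of 30 members tested 11 were higher and 13 lower, while 61.0% of all 15913 tested genes passed, 30.9% higher and 30.1% lower. Of the 20 members at 1 FPKM or more in either group 5 rose, 12 fell and 3 did not pass. Differential expression was met by 2 members upward and 5 downward, against 12.5% of all genes, 7.30% upward and 5.24% downward.

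ITGA2 rose from 3.83, 3.68 and 3.67 FPKM in untreated to 23.2, 23.0 and 25.7 in treated WT libraries, 6.40-fold (2.68 ± 0.06, adjusted p = 1.66e-37), without overlap. LAMB3 rose from 15.4, 16.6 and 14.3 to 29.0, 31.2 and 29.3 FPKM, 1.92-fold (0.94 ± 0.05, adjusted p = 1.07e-20). LAMA3 (chr18:23689443-23956222, + strand), the alpha chain it pairs with, fell instead, from 4.86, 5.56 and 4.71 to 2.0, 1.81 and 2.28 FPKM (-1.32 ± 0.07, adjusted p = 4.18e-16).

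LAMB1 (chr7:107923799-108003255, - strand) fell from 27.3, 28.3 and 28.7 to 13.7, 13.1 and 13.2 FPKM (-1.08 ± 0.05, adjusted p = 2.85e-25) and LAMB2 (chr3:49121114-49133118, - strand) from 26.6, 28.5 and 25.2 to 12.5, 12.2 and 12.4 (-1.12 ± 0.05, adjusted p = 1.59e-24). LAMA5 fell from 4.2, 4.66 and 4.26 to 1.94, 2.08 and 1.94 FPKM (-1.15 ± 0.07, adjusted p = 1.82e-20), and LAMA1 by less (-0.79 ± 0.05, adjusted p = 4.01e-18). In each of these chains every treated library lay below every untreated library. ITGA4 (chr2:181457202-181536187, + strand) fell from 6.54, 6.56 and 6.99 to 3.26, 3.26 and 3.28 FPKM (-1.04 ± 0.07, adjusted p = 1.22e-18). ITGAV (-0.69 ± 0.04, adjusted p = 3.11e-19), ITGA5 (-0.60 ± 0.04, adjusted p = 1.6e-17) and ITGA1 (-0.94 ± 0.08, adjusted p = 5.72e-13) fell by less than 1 on the log2 scale.

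The count of differentially expressed members in WT cells went from 7 to 2, ITGA2 among them, with a gene length offset, because the falls of ITGA4 (-0.86), LAMA3 (-0.99), LAMA5 (-0.83) and LAMB1 (-0.89) came to less than 1 on the log2 scale and that of LAMB2 (-1.0) to just within it. All 5 falls kept an adjusted p under 0.01. The count of all genes differentially expressed under the offset was not computed. The falls of LAMC1, ITGB3 and ITGA11 lost their calls with all 12 libraries in the fit.

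In KO cells ITGA2, LAMB3 and ITGA6 were among the members that rose, and LAMB1, LAMB2, ITGA7, ITGA1 and ITGAV fell. Of 27 members tested 4 were higher and 5 lower, while 26.0% of all 15475 tested genes passed, 13.6% higher and 12.4% lower, and 5 members were differentially expressed, 2 higher and 3 lower, against 11.2% of all genes, 6.09% higher and 5.11% lower. Upper quartile scaling gave 3 higher and 6 lower, while the share of higher ones among all genes called went from 52.3% to 46.2%. The fall of ITGA1 lost its call in 8 of 16 settings. Those of LAMB2 and ITGAV lost theirs when treated KO replicate 1, 2 or 3 was left out. The rise of LAMB3 lost its call without treated KO replicate 1 or 3, and the fall of ITGA7 without replicate 2. ITGA2, ITGA6 and LAMB1 kept their calls in all 16.

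ITGA2 rose from 5.81, 11.8 and 11.4 FPKM in untreated to 52.7, 53.2 and 55.2 in treated KO libraries, 5.52-fold (2.46 ± 0.27, adjusted p = 0.000524). ITGA6 (chr2:172427354-172506282, + strand) rose from 18.4, 20.8 and 20.9 to 41.0, 43.2 and 43.6 FPKM (1.08 ± 0.10, adjusted p = 0.000203), and in WT cells from 19.5, 18.6 and 18.9 to 30.9, 31.8 and 31.3 (0.72 ± 0.05, adjusted p = 6.64e-19). LAMB3 (0.71 ± 0.09, adjusted p = 0.00115) rose by less than 1 on the log2 scale. The treated libraries of these 3 genes lay above all untreated KO libraries.

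LAMB1 fell from 42.2, 53.0 and 50.2 to 19.0, 20.5 and 19.3 FPKM in KO cells (-1.31 ± 0.12, adjusted p = 0.000221) and LAMB2 from 20.9, 31.9 and 28.6 to 12.8, 13.2 and 13.2 (-1.06 ± 0.16, adjusted p = 0.00217). ITGA7 fell from 4.36, 5.71 and 5.31 to 2.02, 2.45 and 2.64 FPKM (-1.12 ± 0.15, adjusted p = 0.00138). No treated library of these 3 genes reached an untreated one. LAMC1 and ITGB3 did not pass in KO cells, at 0.48 ± 0.25, adjusted p = 0.162 and 0.20 ± 0.26, adjusted p = 0.551.

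Without untreated KO replicate 1, 22 members passed in KO cells, 7 higher and 15 lower, while 58.4% of all 16002 tested genes passed, 29.8% higher and 28.6% lower. Of the members 8 were differentially expressed, against 11.8% of all genes. The falls of LAMA3 (-1.25), LAMA5 (-1.04) and ITGA11 (-1.10) and the rise of LAMC1 (0.22, adjusted p = 2.53e-11) then passed, and ITGB3 went to -0.063 (adjusted p = 0.304). Without treated KO replicate 1, 2 or 3, 4 members passed each time, when 11.1 to 11.2% of all genes did.

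**Figure D2:**
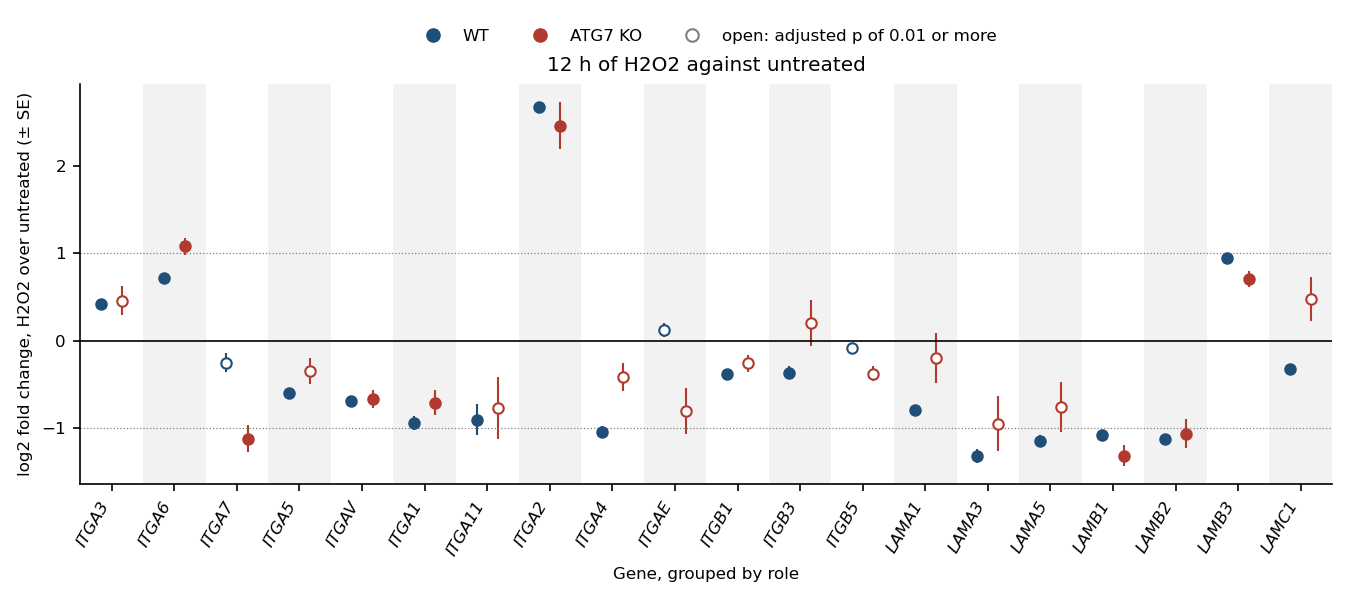
Log2 fold change of 12 h of H2O2 over untreated cells (± SE of the fit, 3 libraries against 3) for 20 expressed members in WT (blue) and KO cells (red). Filled points passed an adjusted p of 0.01. ITGA2 lies highest in both lines, LAMB3 and ITGA6 lie above 0 in both, and the other laminin chains drawn lie below 0 apart from LAMC1 in KO cells, whose open point lies above it.

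The difference between the responses was tested as an interaction over all 12 libraries, the KO response minus the WT response on the log2 scale. Of 30 members tested 3 passed, all lower, while 14.0% of all 16856 tested genes passed, 7.02% higher and 7.01% lower. At an unadjusted p under 0.05, 3 were higher and 10 lower, against 20.3% and 22.3% of all genes. ITGA7, the expressed member among the 3, had log2 fold changes of -1.12 in KO and -0.25 in WT cells, where it was at 2.01, 2.51 and 2.33 FPKM before and 1.81, 2.04 and 1.93 after H2O2 (interaction -0.87 ± 0.19, adjusted p = 0.00522). LAMA2 and ITGAM, the other two, are described with the members of low level. ITGA7 missed the threshold when any of untreated WT replicate 1 or 3, a treated WT replicate, or treated KO replicate 1 or 2 was left out, with adjusted p of at most 0.0178.

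Without untreated KO replicate 1, 16 members passed the interaction, 5 higher and 11 lower, while 34.1% of all 17543 tested genes passed, 17.8% higher and 16.3% lower. LAMC1 then had an interaction of 0.55 (adjusted p = 1.4e-15), against 0.80 ± 0.26, adjusted p = 0.0347 with all libraries. ITGA2 had -0.47 against -0.21, ITGA4 0.48 against 0.63 and ITGA6 0.32 against 0.37. With that library left out, the rise of ITGA2 on H2O2 was smaller and that of ITGA6 larger in KO than in WT cells, and neither difference passed the test with it.

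Chains of a laminin are in fixed proportion in the protein. The RNA ratios between chains were computed within each library, where scaling by library size cancels but a trend on gene length does not. LAMB3 was 0.550 ± 0.0459 of LAMB1 (FPKM ratio, mean ± SD, n = 3) in untreated and 2.24 ± 0.136 in treated WT cells, and 0.969 ± 0.0534 in untreated and 3.92 ± 0.187 in treated KO cells. None of the 4 groups overlapped, and replicate 1 of untreated KO cells (1.03, 0.929 and 0.949) did not stand apart in this ratio. LAMB3 made up 22.0% of the summed beta chain FPKM in untreated WT and 70.1% in treated KO cells.

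LAMA3 relative to LAMB3 went the other way, from 0.326 ± 0.00969 in untreated WT to a mean of 0.0682 in treated WT, 0.0959 ± 0.0352 in untreated KO and 0.0310 ± 0.00124 in treated KO cells. Treated WT (0.0688, 0.0579 and 0.0780) and untreated KO libraries (0.0553, 0.118 and 0.115) overlapped, and the other groups did not. The overlap rests on replicate 1 of untreated KO cells, the library that was lower in long genes. LAMA3 has a gene length of 14678 bases and LAMB3 of 4688. Whether the length trend bears on the overlap was not tested. With 3 libraries against 3 an exact permutation test cannot give a two-sided p below 0.1, and none is printed for these ratios.

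**Figure D3:**
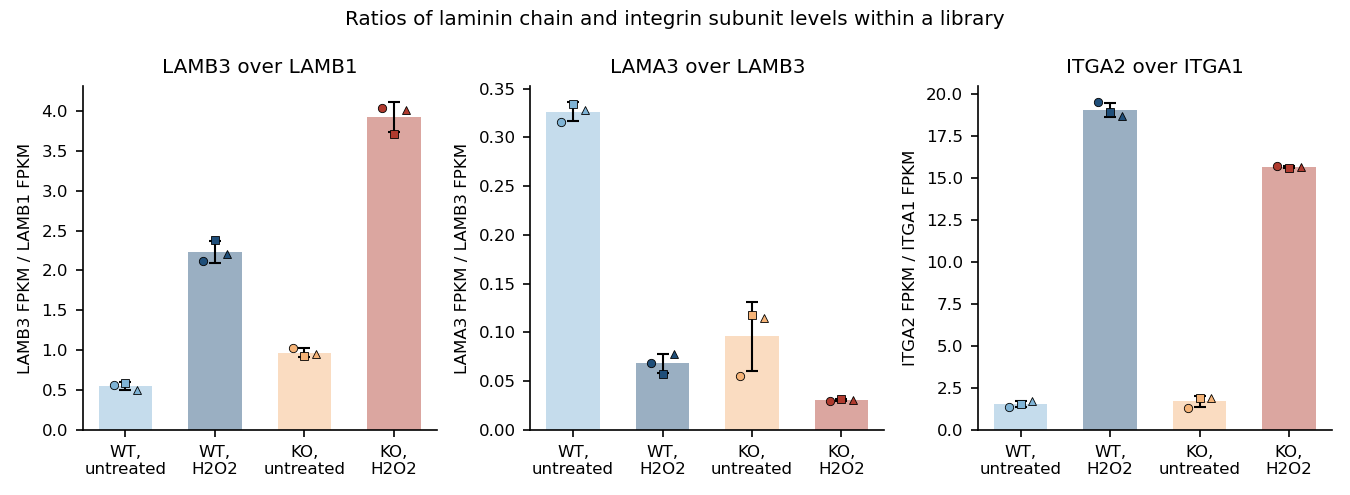
Ratios of FPKM within a library, as LAMB3 over LAMB1, LAMA3 over LAMB3 and the collagen receptor subunits ITGA2 over ITGA1. Bars are group means with SD (n = 3) and points are libraries, shaped by replicate. The ratio of LAMB3 to LAMB1 is 0.550 in untreated WT and 3.92 in treated KO cells, that of LAMA3 to LAMB3 is 0.326 and 0.0310, and that of ITGA2 to ITGA1 is higher in the treated than in the untreated libraries of both lines.

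Among integrins the mix of alpha subunits also shifted. ITGA2 made up 1.35 ± 0.0344% of the summed alpha FPKM in untreated WT, 7.67 ± 0.486% in treated WT, 2.88 ± 0.636% in untreated KO and 13.5 ± 0.205% in treated KO cells. ITGAV went from 20.2 ± 0.709% to 11.1 ± 0.340% in WT and from 23.4 ± 2.20% to 12.1 ± 0.465% in KO cells. ITGA2 over ITGA1, the collagen receptor subunits that lie side by side on chromosome 5, rose from 1.56 ± 0.167 to 19.0 ± 0.407 in WT and from 1.70 ± 0.348 to 15.6 ± 0.0620 in KO cells. ITGB3 over ITGB5 was 0.393 ± 0.0279 in treated WT and 0.719 ± 0.0171 in treated KO cells, without overlap.

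Among the members under 1 FPKM, ITGA2B, ITGB4 and LAMA2 rose with H2O2 in WT cells and ITGA11 fell. ITGA10, ITGAM and ITGB7 were also called higher there, but reached the filter on low counts in the treated WT libraries alone, so that the filter largely set their direction. In treated KO against WT cells ITGAM, ITGB4 and LAMA2 were lower and had reached the filter in both groups. Under the other settings ITGB4 and LAMA2 kept this call, whereas ITGAM lost it in 8 of 16. Of the members called lower that had reached the filter in WT libraries alone, ITGB2 lost its call in 11 of 15 settings and ITGA10 in 7 of 15. ITGAM, the alpha subunit of a leukocyte complement receptor, had 8, 5 and 8 reads in untreated WT, 84, 79 and 65 in treated WT, 18, 24 and 25 in untreated KO and 34, 46 and 64 in treated KO libraries (interaction -2.38 ± 0.42, adjusted p = 0.00152). LAMA2 (chr6:128883141-129516569, + strand), the laminin alpha chain of muscle, had 28, 14 and 21 reads in untreated WT and 100, 70 and 70 in treated WT libraries, and 30, 25 and 21 in untreated and 11, 16 and 21 in treated KO libraries (interaction -2.64 ± 0.44, adjusted p = 0.00119). Both were highest in treated WT libraries and did not overlap there with any other group.

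Without the filter on low counts the median log2 fold change of all genes was 0.20 in the WT response and -0.12 in treated KO against WT cells. The summed level of 7 leukocyte markers was 1.96 to 2.58 FPKM in untreated WT and 1.90 to 2.69 in treated WT libraries, and 1.64 to 2.37 in untreated and 0.725 to 0.962 in treated KO libraries. PTPRC, the defining leukocyte gene, had at most 0.119 FPKM in any library. Single markers went in different directions in WT cells. LYZ went from a mean of 1.29 to 0.305 FPKM and PTPRC from 0.0891 to 0.0192. CD14 went from 0.748 to 1.26 and SPI1, a myeloid transcription factor, from 0.0721 to 0.711. In treated KO cells LYZ was at 0.165, PTPRC at 0.0296, CD14 at 0.576 and SPI1 at 0.0754 FPKM. Whether a share of such cells bears on ITGAM was not tested. ITGB4 overlaps GALK1 and ITGB7 overlaps ZNF740 on the opposite strand, which had 934% and 17437% as many reads.

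Each member was set beside the 20 tested genes on either side of it, to see whether a stretch of its chromosome differed in the same direction. The 40 neighbours of LAMB3 had a median log2 fold change of 0.01 in untreated and 0.11 in treated KO against WT cells. Neighbours of ITGB5 on chromosome 3 had medians of -0.51 and -0.23, below 0, while ITGB5 itself was higher, and those of ITGB3 had -0.31 in untreated and 0.11 in treated cells. For the other expressed members the neighbour medians lay between -0.16 and 0.21 in untreated and between -0.14 and 0.21 in treated cells. Without untreated KO replicate 1 the untreated medians were -0.02 for LAMB3, -0.55 for ITGB5 and -0.23 for ITGB3, and between -0.08 and 0.14 for the other expressed members.

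**Figure D4:**
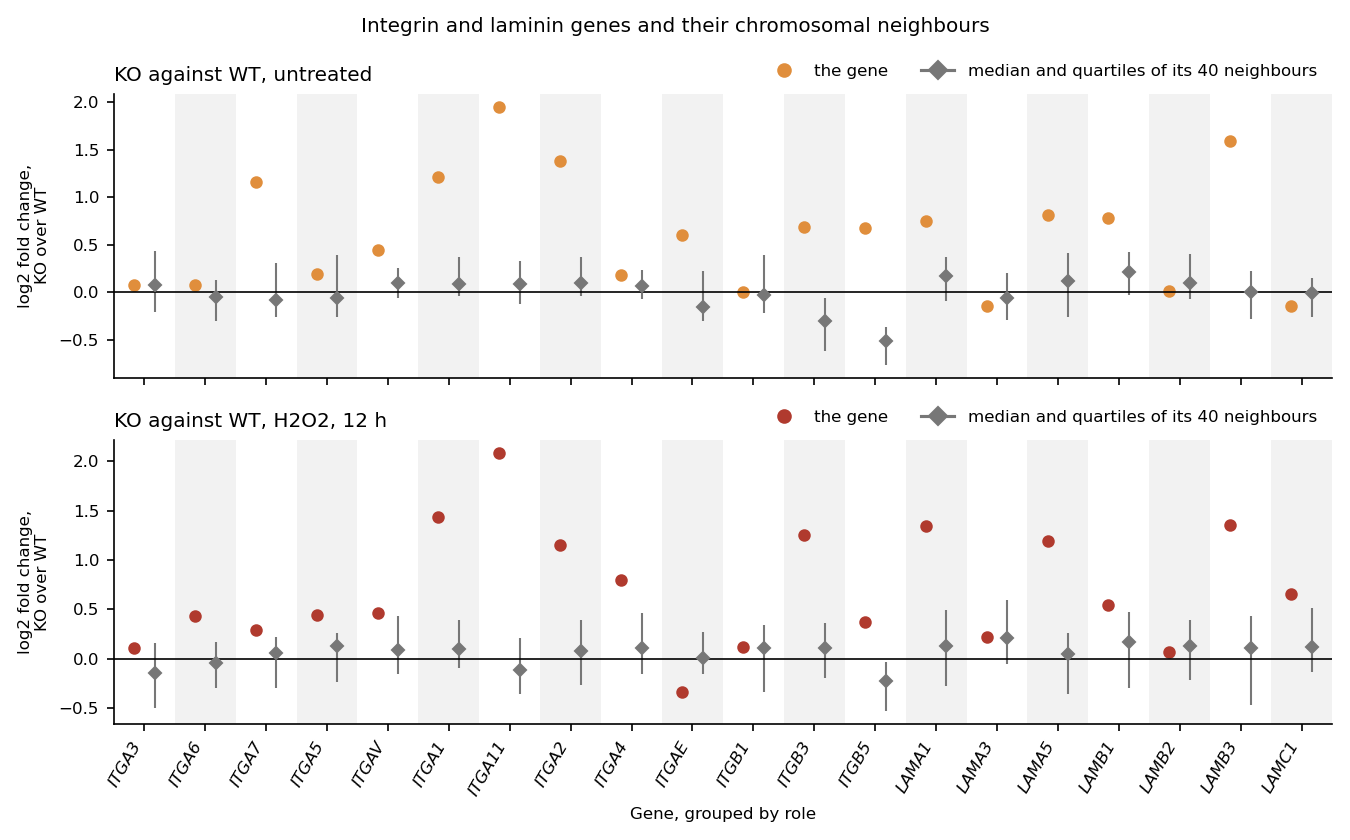
Log2 fold change of KO over WT cells for 20 expressed members (circles) and the median with quartiles of its 40 neighbouring tested genes (grey diamonds), untreated above and after H2O2 below. LAMB3 lies far above neighbours whose median is near 0, and the neighbours of ITGB5 lie below 0.

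Genes that work with integrins and laminins were counted in lists written from general knowledge. The shares of all tested genes apply to every list below. In treated KO against WT cells 27.7% were higher and 27.9% lower. The WT response had 30.9% higher and 30.1% lower. In untreated KO against WT cells 4.42% were higher and 3.28% lower, and in the KO response 13.6% and 12.4%. Without untreated KO replicate 1 these came to 18.2% and 17.9%, and to 29.8% and 28.6%. No list was tested against these shares. Of 30 cytoplasmic partners, the proteins that tie integrins to actin, 28 were tested, and 14 were higher and 5 lower in treated KO than in treated WT cells. TNS2 (1.21 ± 0.09) and TNS3 (1.01 ± 0.04), tensins of mature adhesions, were higher, and LIMS2 (-1.91 ± 0.16), a partner of integrin-linked kinase, ZYX (-0.60 ± 0.04) and SRC (-0.34 ± 0.05) lower, as log2 fold change ± SE. In the WT response 7 rose and 14 fell, with LPP (-1.32 ± 0.04), TLN2 (-1.14 ± 0.07) and TNS2 (-1.07 ± 0.10) falling the most and FERMT3 (0.99 ± 0.24), TES (0.96 ± 0.05) and SRC (0.76 ± 0.05) rising the most. In KO cells 3 rose and 3 fell, and in untreated KO against WT cells LIMS2 (-0.71 ± 0.11) was the 1 call. Without untreated KO replicate 1 these counts were 12 and 12 in the KO response and 9 higher and 5 lower in untreated cells, LIMS2 among them (-0.72 ± 0.12).

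Of 4 hemidesmosome genes beside ITGB4, 3 rose and 1 fell in the WT response, where the linker DST fell (-1.53 ± 0.04) and its relative PLEC rose (0.87 ± 0.05). In treated KO against WT cells DST (0.98 ± 0.04), PLEC (0.47 ± 0.04) and COL17A1 (0.92 ± 0.20) were higher and the tetraspanin CD151 lower (-0.28 ± 0.04). 

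Of 10 other laminin receptors, all tested, 4 rose and 4 fell in the WT response, against 30.9% and 30.1% of all genes. The syndecans SDC4 (1.78 ± 0.04), SDC1 (1.20 ± 0.05) and SDC2 (0.55 ± 0.07) rose, and the dystroglycan complex genes UTRN (-2.10 ± 0.06), DMD (-0.81 ± 0.09) and DAG1 (-0.66 ± 0.04) fell. In KO cells SDC1 (1.57 ± 0.09), SDC4 (1.18 ± 0.11) and SDC2 (0.82 ± 0.13) rose, and BCAM, a receptor for LAMA5 laminins, fell (-0.63 ± 0.11). The rise of SDC4 was smaller in KO than in WT cells (interaction -0.60 ± 0.11). These 4 genes also passed without untreated KO replicate 1, at 1.53 ± 0.04 for SDC1, 1.26 ± 0.03 for SDC4, 0.94 ± 0.07 for SDC2 and -0.64 ± 0.07 for BCAM, and the interaction of SDC4 was then -0.51 ± 0.06. In treated KO against WT cells 5 were higher, led by DMD (0.95 ± 0.09), UTRN (0.86 ± 0.06) and SGCB (0.54 ± 0.04), and 4 lower, led by BCAM (-0.63 ± 0.08).

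Of 17 other basement membrane genes 15 were tested in the WT response, and 4 rose and 11 fell, against 30.9% and 30.1% of all genes. HSPG2, the perlecan core protein, fell the most (-1.75 ± 0.05), with PXDN (-0.92 ± 0.04) and COL4A2 (-0.79 ± 0.04), and COL4A6 (0.91 ± 0.12) rose. In treated KO against WT cells 4 were higher and 6 lower, against 27.7% and 27.9% of all genes. The collagen IV chains COL4A5 (1.64 ± 0.06) and COL4A6 (1.26 ± 0.09), whose genes lie head to head on the X chromosome, and TINAGL1 (0.75 ± 0.05) were higher, and SPARC (-0.89 ± 0.03), COL18A1 (-0.58 ± 0.04) and NID2 (-0.49 ± 0.15) lower. COL4A5 also passed the interaction (1.15 ± 0.16). In untreated KO against WT cells 3 were higher and 1 lower, SPARC (-0.68 ± 0.09), and in the KO response 2 rose and 2 fell. Without untreated KO replicate 1 these counts were 4 and 3, and 3 and 8, with SPARC at -0.67 ± 0.04 and the interaction of COL4A5 at 1.04 ± 0.08.

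Of 24 other integrin ligands 18 were tested in treated KO against WT cells, and 6 were higher and 9 lower, against 27.7% and 27.9% of all genes. THBS1 (1.56 ± 0.04), a matricellular ligand, EMILIN1 (0.88 ± 0.27) and FN1 (0.54 ± 0.03) were higher, and POSTN (-3.89 ± 0.49), FBLN5 (-2.13 ± 0.57) and ICAM1 (-0.82 ± 0.04) lower, POSTN and FBLN5 at under 1 FPKM in all 4 groups. Neither POSTN nor FBLN5 reached the filter on low counts in the KO response. Both were thus tested here through the WT libraries, so that the filter largely set their direction. In the WT response 5 rose and 8 fell, with CTGF (1.49 ± 0.04) rising and FBN1 (-1.28 ± 0.04) and FN1 (-1.19 ± 0.04) falling the most. In untreated KO against WT cells THBS1 (1.37 ± 0.15) was the 1 higher call, with 4 lower, and in the KO response 3 rose and 3 fell. With untreated KO replicate 1 left out, THBS1 (1.49 ± 0.05) was 1 of 2 higher calls with 10 lower, and in the KO response 4 rose and 8 fell.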

How the data were processed

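Reads were aligned with HISAT2 2.0.5 and counted with featureCounts 1.5.0-p3 on GRCh38, per the submitters' processing notes. The libraries were made with the NEBNext Ultra kit, and the strand setting is not given in the sources used here. The authors deposited raw counts per gene, without normalization, and FPKM values made from them, which equal count over gene length and total count times a factor of 0.949 to 1.02 per library. Counts were tested with edgeR 4.0.16 in R 4.3.3 (filterByExpr with a minimum count of 10, TMM, robust quasi-likelihood fit), each comparison on its own 6 libraries and the interaction on all 12. P-values were adjusted over all genes tested. Each SE was derived from the F statistic. The script was tested on simulated data. Replicates are numbered in the labels, which do not say whether they are separate cultures, so p-values measure the spread between these samples. The members and lists were chosen with earlier results of these data known. Values in every library are given for members differentially expressed in a comparison of groups or past the interaction test, and named genes of other lists are those with the largest changes among the genes that passed, at most 3 in each direction. Results of some genes are not reported here. Other settings were DESeq2 1.42.0, scaling by RLE or by upper quartiles, leaving the filter out or asking for 10 counts in each library, all 12 libraries in the fit, the replicate number as a block, an offset from a lowess curve on gene length (span 0.3), limma 3.58.1 on log2 of the FPKM plus 1 or plus 0.1, and each library left out in turn. The partner lists and neighbours without untreated KO replicate 1 were added after the data had been seen. Promoter windows of 26 of 38 members came from RefSeq (GRCh38.p14).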

Additional observations from a re-analysis of the deposited data

Results flagged for a closer look

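The difference between the H2O2 responses of KO and WT cells passed the interaction test for 3 members, which are named here for that reason. ITGA7 had an interaction of -0.87 on the log2 scale (adjusted p = 0.00522), with mean levels of 2.28 and 1.93 FPKM in WT cells before and after H2O2 and 5.12 and 2.37 FPKM in KO cells. ITGAM had an interaction of -2.38 (adjusted p = 0.00152), at a mean of at most 0.812 FPKM in any group. LAMA2 had an interaction of -2.64 (adjusted p = 0.00119), at a mean of at most 0.467 FPKM. No sample of a group of 4 or more could be tested as standing apart, since every group has 3.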

How the results depend on the processing

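The 67 calls of single members were recomputed under other settings, and members that had not passed are not counted here. Of the 1080 values, 986 kept their direction and side of the threshold, 93 kept the direction only and 1 turned, ITGA3 in treated KO against WT cells with the gene length offset (-0.060). The count of members past the threshold in treated KO against WT cells, 25, and in the WT response, 24, stayed within 1.5 times under every setting, although the lower calls among the 25 went from 8 to 5 with DESeq2 and limma and to 4 with all 12 libraries. In untreated KO against WT cells it went from 6 to 11 with DESeq2, 12 with all 12 libraries in the fit, 13 with the gene length offset and 3 with the replicate block, and ranged from 2 to 20 when a library was left out. In the KO response it went from 9 to 18 with all 12 libraries and ranged from 4 to 22, and in the interaction from 3 to 6 with DESeq2, the gene length offset or limma on log2(FPKM + 1), to 9 without a filter on low counts and to 16 without untreated KO replicate 1. The count over all genes moved too. In treated KO against WT cells it went from 8847 to 4876 with all 12 libraries in the fit, and in the WT response from 9712 to 6829. In untreated KO against WT cells it was 1182, and 2511 with DESeq2. All 12 libraries gave 3154, the offset 1803, the block 499 and leaving out a library 287 to 5734. In the KO response it went from 4025 to 6528 with all 12 libraries and ranged from 1767 to 9341. In the interaction it went from 2366 to 3703 with DESeq2, 2445 with the offset and 2644 with limma. It was 4054 without the filter and 5974 without that replicate. Differentially expressed members in limma on log2(FPKM + 1) were 5 in treated and 2 in untreated KO against WT cells, 4 in the WT and 3 in the KO response, and 2 in the WT response with the gene length offset. When a library was left out they ranged from 2 to 8 in untreated KO against WT cells and from 3 to 8 in the KO response. Among these settings, the share of all genes differentially expressed was computed only without untreated KO replicate 1. These moves thus cannot be called particular to the members. The cause of these moves was not tested. Same-numbered replicates did not deviate together (correlations of -0.04 to 0.10), so the numbers were not taken as pairs. The same 8 members stayed under the filter on low counts in every comparison and were not tested. With further members under it, 10 were not tested in untreated KO against WT cells and 11 in the KO response.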
